A study of Mus musculus with 6 samples.

Results

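The Hox genes were measured in mouse embryonic fibroblasts, which are the cells of connective tissue that attach and divide when a minced embryo is put in culture. All 57 probes of the bead array whose target name is HOX, a cluster letter from A to D and a number were taken, out of 45281 probes in all, and they cover 39 Hox genes out of 30774 target names. The cultures came from 3 Asciz-/- embryos and 3 Asciz+/+ embryos, all on a C57BL/6 background, taken at embryonic day 12.5. The cells were kept for 48 hours in a first dish, moved to a larger dish and passaged once before RNA was isolated. Asciz, now called Atmin, is a transcription factor of the zinc-finger class. The sources used here do not say how the allele was made or which parts of the embryo went into each culture. Groups of paralogue numbers are called anterior (1 to 4), central (5 to 8) and posterior (9 to 13).

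Hox genes encode homeodomain transcription factors and lie in 4 clusters, Hoxa, Hoxb, Hoxc and Hoxd, in which the order along the chromosome follows the order of expression from head to tail. Genes of low number are used from the hindbrain backwards, and genes of high number in the lumbar and tail region and in the limbs. In the limb, posterior Hoxa and Hoxd genes are expressed again in a proximal to distal sequence. Fibroblasts keep much of this code in culture, so their Hox transcripts reflect the body region from which the cells came.

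Levels are background-corrected, quantile-normalized log2 intensities, and a probe counts as detected on an array when its detection p is under 0.05. Between 17580 and 18794 of the 45281 probes were detected per array, and precision was limited by having 3 arrays of each genotype. The targeted gene matched the labels. Of the 3 Atmin probes, those detected on all arrays stood at -1.99 and -1.95 (log2, knockout minus wild type, adjusted p = 0.00646 and 0.00427 by limma). All 12 fibroblast markers were detected on at least 1 array, with mean levels of 8.82 to 9.81 in knockout and 9.10 to 9.48 in wild-type cultures. Wild-type culture 1 had an XX pattern: Xist was detected there and on no other array. Knockout culture 3 correlated least with the other arrays, at a mean of 0.979 against 0.985 to 0.989 for the remaining 5. Some of the results that rest on wild-type culture 1 are also given without it. Because a probe's brightness depends on its sequence, levels are compared between cultures and not between genes.

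Every cluster was represented in these cultures. Of the 39 genes, 21 had a probe that was detected on all 6 arrays, 9 had one detected on 1 to 5 arrays, and 9 were not detected at all. In Hoxa the undetected genes were Hoxa3, Hoxa6 and Hoxa11, and in Hoxb they were Hoxb1 and Hoxb13. In Hoxc they were Hoxc5, Hoxc11 and Hoxc12, and in Hoxd it was Hoxd1. Counted by probes, 26 of 57 were detected on all arrays, 12 on 1 to 5 arrays and 19 on none. The 19 undetected probes read between 76.3 and 105.1 intensity units, within the range of background. Several of them have a detected sister probe (Hoxa9, Hoxa10, Hoxa13, Hoxb3, Hoxd12), so a silent probe does not show that its gene was silent.

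**Figure D1:**
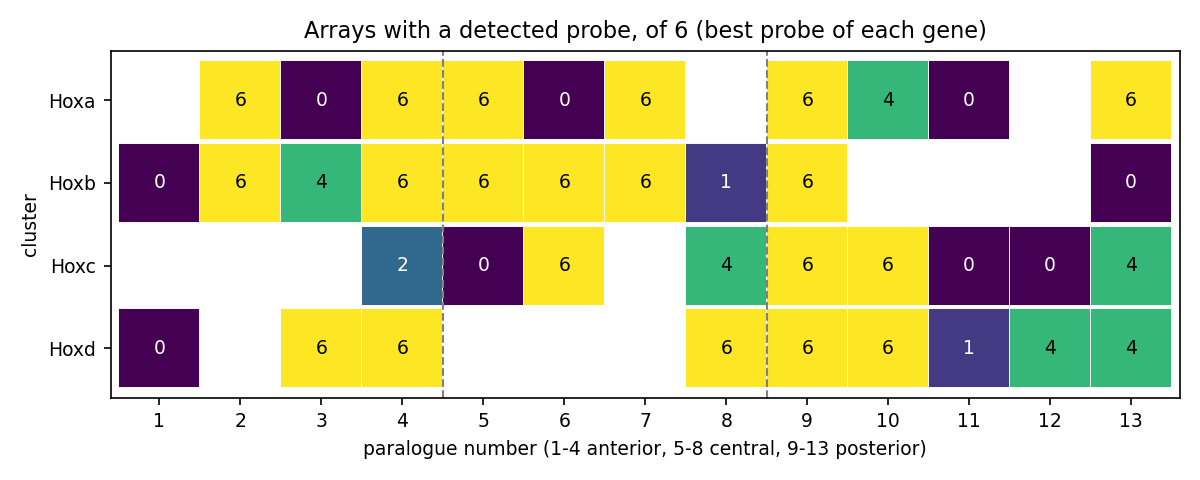
Number of arrays, of 6, on which the most often detected probe of 38 Hox genes was detected, by cluster (rows) and paralogue number (columns); white cells show no gene. Genes marked 6 lie in every cluster, and the 9 genes marked 0 lie in every cluster as well.

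Promoters of 4 genes are shown because their mean levels differed in opposite directions, with Hoxa2 and Hoxa7 lower and Hoxd9 and Hoxd10 higher in knockout cultures, none of them past the test. The sequences are the 250 bases before the start site, 5′ to 3′, from RefSeq (GRCm38.p6), in which 22 of the 39 genes had a promoter. Capitals mark matches, on either strand, to a Pbx-Hox motif (TGATTNAT), a Meis motif (TGACAG), a Cdx motif (TTTATNG) or a TATA motif (TATAAA), the last pair of which can overlap.
Hoxa2, chr6:52164832-52165081, minus strand: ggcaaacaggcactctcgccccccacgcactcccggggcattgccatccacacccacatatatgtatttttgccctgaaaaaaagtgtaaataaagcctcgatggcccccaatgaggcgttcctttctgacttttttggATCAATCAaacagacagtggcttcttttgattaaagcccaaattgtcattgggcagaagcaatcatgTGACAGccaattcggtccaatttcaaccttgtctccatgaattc
Hoxa7, chr6:52218574-52218823, minus strand: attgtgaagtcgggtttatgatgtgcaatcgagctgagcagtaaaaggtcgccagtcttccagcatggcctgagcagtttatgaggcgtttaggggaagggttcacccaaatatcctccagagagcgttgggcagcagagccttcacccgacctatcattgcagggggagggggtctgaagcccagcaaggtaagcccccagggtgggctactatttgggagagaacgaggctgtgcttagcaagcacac
Hoxd9, chr2:74697513-74697762, plus strand: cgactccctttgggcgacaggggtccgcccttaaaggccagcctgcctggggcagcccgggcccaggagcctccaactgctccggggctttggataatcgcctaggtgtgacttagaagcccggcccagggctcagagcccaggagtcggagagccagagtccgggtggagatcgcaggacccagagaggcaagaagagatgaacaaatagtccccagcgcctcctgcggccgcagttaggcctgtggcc
Hoxd10, chr2:74691641-74691890, plus strand: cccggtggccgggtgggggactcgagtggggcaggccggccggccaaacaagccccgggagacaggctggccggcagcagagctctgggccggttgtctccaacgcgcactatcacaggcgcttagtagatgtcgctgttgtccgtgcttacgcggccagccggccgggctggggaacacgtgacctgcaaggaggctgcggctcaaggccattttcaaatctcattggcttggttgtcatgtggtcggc
The Hoxa2 window holds the Pbx-Hox motif on the strand opposite to the gene, beginning 111 bases before the start, and the Meis motif 44 bases before it. The windows of Hoxa7, Hoxd9 and Hoxd10 hold none of these letters. Of 24 Hox promoters, 2 held the Pbx-Hox motif, 2 the Meis motif, 2 the Cdx motif and 4 the TATA motif. Among all 32851 promoters of the same length the shares were 2.82%, 15.9%, 9.81% and 12.4%. These matches describe the sequence and show no binding.

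The number of detected Hox probes per culture lay in a narrow range, between 31 and 34. It was 31, 32 and 31 in knockout cultures 1, 2 and 3, against 33, 32 and 34 in wild-type cultures 1, 2 and 3. Of the 20 anterior probes, 11, 9 and 9 were detected in the knockout cultures, against 12, 11 and 11 in wild type. Of the 25 posterior probes, 11, 14 and 14 were detected in the knockout cultures, against 11, 12 and 15 in wild type. The posterior counts thus overlapped between genotypes, and the lowest count was that of knockout culture 1 and wild-type culture 1.

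In that pair of cultures the genes at the far 5′ end of the Hoxd cluster were not detected. Hoxd12 and Hoxd13, which pattern the distal limb and the genital region, were each detected in knockout cultures 2 and 3 and in wild-type cultures 2 and 3, and not in culture 1 of either genotype. In unnormalized brightness the Hoxd12 probe read 89.1 ± 3.0, 123.9 ± 3.4 and 119.0 ± 3.6 intensity units in knockout cultures 1, 2 and 3 (± standard error over beads). In wild-type cultures 1, 2 and 3 it read 90.9 ± 2.6, 110.2 ± 3.2 and 148.2 ± 5.8. The Hoxd13 probe read 95.2 ± 3.1, 101.1 ± 3.8 and 98.8 ± 2.8 in knockout cultures 1, 2 and 3. In wild-type cultures 1, 2 and 3 its readings were 94.3 ± 2.3, 99.1 ± 3.2 and 128.2 ± 4.3. Apart from wild-type culture 3, its detected and undetected readings lay close together. The bead error covers the reading of 1 array and not the differences between cultures. On the log2 scale Hoxd12 had 4.40, 5.97 and 5.94 in knockout cultures 1, 2 and 3, against 4.37, 5.54 and 6.05 in wild-type cultures 1, 2 and 3. Hoxd13 had 4.56, 5.11 and 5.11 in the knockout cultures, against 4.45, 5.04 and 5.64 in wild type. The genotypes overlapped for both genes, and the differences were 0.11 (SE 0.52, adjusted p = 0.974) and -0.11 (SE 0.30, adjusted p = 0.946) by limma. The other Hoxd12 probe was detected nowhere, and Hoxd11, which acts with Hoxd12 in the distal limb, was detected in wild-type culture 3 alone, at 4.65, 4.81 and 4.69 in the knockout cultures, against 4.51, 4.70 and 4.89 in wild type.

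For Hoxd10 and Hoxd9, further inwards in the cluster, wild-type culture 1 was again the lowest. Hoxd10, which is used in the caudal spinal cord and the limb, had the widest range of all tested Hox probes. It stood at 6.97, 8.35 and 7.92 in knockout cultures 1, 2 and 3, against 5.80, 7.34 and 7.75 in wild-type cultures 1, 2 and 3. The lowest and highest cultures, wild-type 1 and knockout 2, differed 5.87-fold, and 0.439% of all tested probes had a wider range over the 6 cultures. Its difference was 0.78 (SE 0.53, adjusted p = 0.752), with a 95% confidence interval of -0.43 to 2.00. Without wild-type culture 1 it was 0.20, and without wild-type culture 3 it was 1.18. The first Hoxd9 probe had 5.85, 6.49 and 5.76 in the knockout cultures, against 4.90, 5.35 and 5.94 in wild type. The second had 6.21, 6.56 and 5.55 in the knockout cultures, against 4.99, 5.55 and 6.13 in wild type. The differences were 0.64 (SE 0.29, adjusted p = 0.671) and 0.55 (SE 0.33, adjusted p = 0.735), and the genotypes overlapped on both probes. Without wild-type culture 1 they were 0.39 and 0.27.

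Averaged over the 5 tested posterior Hoxd probes, the level was 5.60, 6.50 and 6.06 in knockout cultures 1, 2 and 3, against 4.90, 5.76 and 6.30 in wild-type cultures 1, 2 and 3. Wild-type culture 1 was the lowest of the 6 cultures for all 5 probes. Hoxd8, the central gene of this cluster, which is used in the trunk, had 6.54, 7.60 and 7.43 in the knockout cultures, against 6.80, 6.43 and 7.10 in wild type (difference 0.41, SE 0.29, adjusted p = 0.766). Hoxd4 and Hoxd3 help to pattern the upper neck vertebrae. Hoxd4 had 5.86, 5.56 and 6.22 in the knockout cultures, against 5.73, 5.74 and 5.84 in wild type (difference 0.11, SE 0.18, adjusted p = 0.907). Hoxd3 had 5.17, 4.94 and 5.33 in the knockout cultures, against 5.02, 4.998 and 5.37 in wild type (difference 0.02, SE 0.16, adjusted p = 0.988). The median SD within a genotype was 0.54 over the posterior Hoxd probes, and Hoxd3 and Hoxd4 ranged over less than 1 log2 unit. The probe named HOXA11S, an antisense transcript of the Hoxa11 locus that is no Hox gene, read 5.19, 6.22 and 6.35 in the knockout cultures, against 5.02, 5.58 and 5.92 in wild type, lowest in the same pair of cultures.

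**Figure D2:**
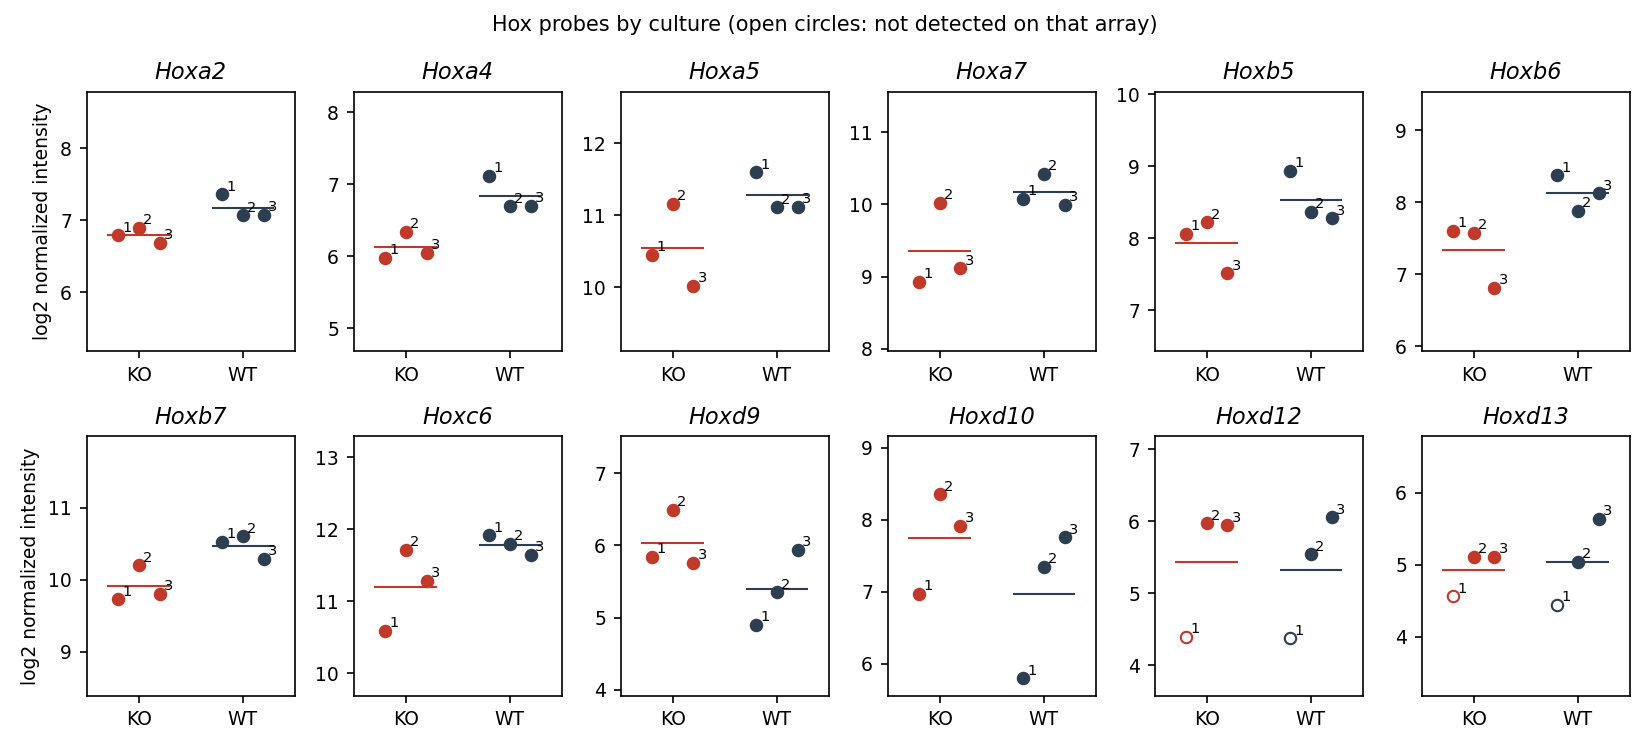
Log2 normalized intensity of 12 Hox probes (1 panel each, vertical axis of equal span in every panel) in knockout (KO, left) and wild-type (WT, right) cultures, numbered by replicate, with group means as lines and open circles where the probe was not detected. On the probes drawn, knockout values of Hoxa2, Hoxa4, Hoxb5, Hoxb6 and Hoxb7 lie below all wild-type values. The other tested Hoxa2 probe, which is not drawn, overlaps between genotypes. Hoxd12 and Hoxd13 are undetected in culture 1 of both genotypes.

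Across all 34 tested Hox probes, which stand for 27 genes, the median standard deviation within a genotype was 0.34, against 0.19 over all 18221 tested probes. A range over the 6 cultures above 1 log2 unit was found for 15 of the 34 probes, or 44.1%, against 10.7% of all tested probes. The tested Hox probes were somewhat dimmer, at a median level of 6.73 against 7.32 over all tested probes, and the part of brightness in this spread was not tested. The median standard deviation was 0.22 for the 11 anterior, 0.36 for the 9 central and 0.39 for the 14 posterior probes.

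No Hox probe passed the comparison of genotypes. At an adjusted p of 0.05, limma called 0 of the 34 tested Hox probes, against 0.0439% of all 18221 tested probes (0.022% lower in knockout), and the smallest adjusted p of a Hox probe was 0.481. The same count of 0 was found under each of its 20 alternatives (2 of which, leaving out wild-type culture 1 and the XX covariate, are the same fit), which included a trended variance model and array weights. At an unadjusted p under 0.05 there were 8 Hox probes, or 23.5%, against 7.53% of all tested probes. All 8 were lower in the knockout cultures (among all tested probes, 3.86% were lower and 3.67% higher at that threshold). Array weights gave 6 lower and 2 higher (11.6% of all tested probes), and leaving out knockout culture 1 gave 7 and 2 (9.91%). Leaving out knockout culture 3 gave 4 and 2 (7.44%), and no filter on dim probes gave 10 and 1 (6.44%). Under most other alternatives none was higher. The differences of the 34 probes were evenly split, with 17 below and 17 above 0 (51.6% of all tested probes were below 0) and a median of -0.0059, against -0.0080 over all tested probes. Under scaling of the arrays to a common median, which moved the median of all tested probes to -0.18, 23 were below 0 and 11 above.

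**Figure D3:**
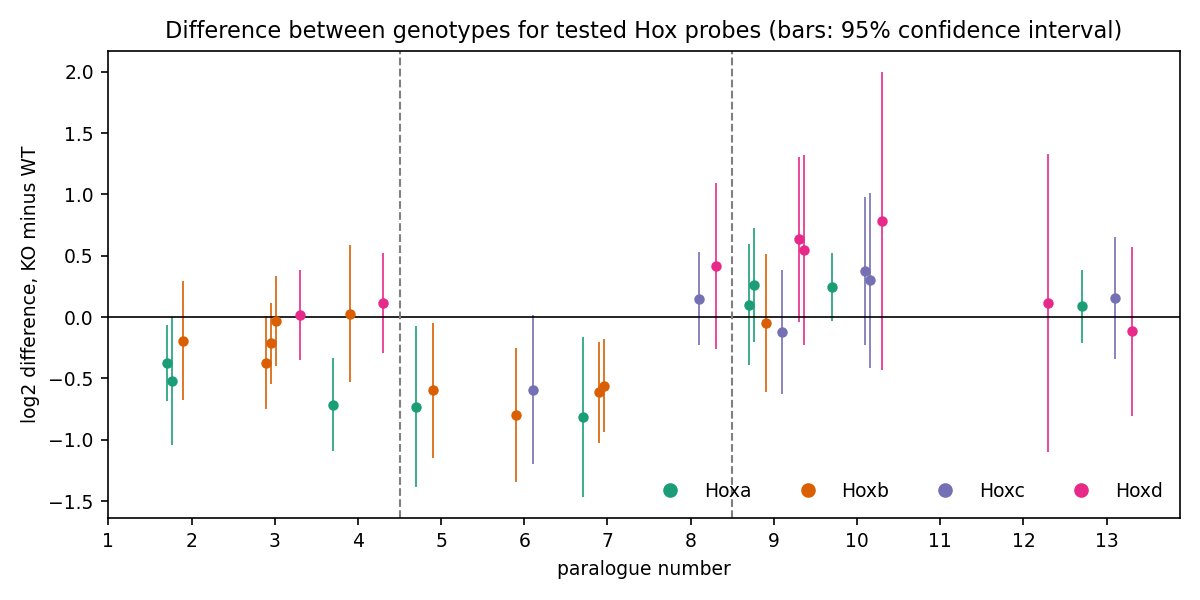
Log2 difference, knockout minus wild type, of 33 tested Hox probes by paralogue number (horizontal axis) and cluster (colour), with 95% confidence intervals from limma and dashed lines between the anterior, central and posterior groups. Tested probes of paralogues 5 to 7 all lie below 0, and 13 of the 16 probes of paralogues 8 to 13 lie above 0.

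Lower values in knockout cultures lay mainly among low paralogue numbers. Of the 18 tested probes with paralogue numbers 1 to 7, 14 were below 0. Of the 16 with numbers 8 to 13, 13 were above 0. This boundary was placed after the values were seen. With the groups used throughout, 7 of 11 anterior, 7 of 9 central and 3 of 14 posterior probes were below 0, with medians of -0.19, -0.60 and 0.20. The number of posterior probes above 0, 11 of 14, depended on single cultures. It was 9 without wild-type culture 1, without knockout culture 3 or with median scaling. It was 8 without knockout culture 2, 13 without wild-type culture 3 and 14 without knockout culture 1. Paralogues 5 to 7 are present in Hoxa, Hoxb and Hoxc, and all 7 tested probes of these genes were below 0. Members share the same 6 cultures and are not replicates of a genotype.

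Among the anterior genes, Hoxa4 and Hoxa2 lay lower in knockout cultures, without passing the test. Hoxa4, which patterns cervical vertebrae, had 5.98, 6.34 and 6.05 in knockout cultures 1, 2 and 3, against 7.11, 6.69 and 6.70 in wild-type cultures 1, 2 and 3. The groups did not overlap, and the difference of -0.71 (SE 0.17, adjusted p = 0.481) by limma had the smallest p of all Hox probes. Hoxa2, which sets the identity of the second branchial arch, had 6.63, 7.33 and 6.68 in the knockout cultures, against 7.66, 7.43 and 7.10 in wild type on its first probe. On its other probe it had 6.79, 6.90 and 6.69 in the knockout cultures, against 7.36, 7.07 and 7.08 in wild type. The differences were -0.52 (SE 0.23, adjusted p = 0.666) and -0.38 (SE 0.13, adjusted p = 0.629), and the groups overlapped on the first probe alone. Of the promoters printed above, that of Hoxa2 is the one with motif matches.

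The other anterior genes differed less. Hoxb2, a hindbrain gene, had 8.09, 8.39 and 8.26 in the knockout cultures, against 8.84, 8.01 and 8.46 in wild type (difference -0.19, SE 0.21, adjusted p = 0.852). Hoxb4, best known from the hindbrain and from blood stem cells, had 6.90, 7.67 and 7.05 in the knockout cultures, against 7.54, 6.93 and 7.05 in wild type (difference 0.03, SE 0.24, adjusted p = 0.986). Knockout culture 2 and wild-type culture 1 were the highest for Hoxb4, so that its groups overlapped widely. The 3 tested probes of Hoxb3, another hindbrain gene, detected on 3 or 4 arrays each, gave -0.37, -0.21 and -0.03. Hoxc4 was not detected on any knockout array and was detected on 2 wild-type arrays, at 4.55, 4.51 and 4.70 in the knockout cultures, against 5.12, 4.51 and 5.03 in wild type. The groups overlapped, since wild-type culture 2 was undetected and lay below 2 knockout cultures. The means were 4.59 in knockout and 4.89 in wild-type cultures (SD 0.33 in wild type). With each knockout value raised to the lowest detected level on its array where it lay under it, the mean was 1.05-fold lower in knockout cultures. The undetected value of wild-type culture 2 entered as measured, so this is no strict bound. Hoxc4 is, like Hoxa4, a gene of the neck vertebrae.

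The central genes with numbers 5 to 7 had lower means in the knockout cultures for all 7 tested probes, and none passed the adjusted test. Hoxb6, expressed in trunk and limb mesoderm, had 7.61, 7.57 and 6.81 in knockout cultures 1, 2 and 3, against 8.38, 7.88 and 8.12 in wild-type cultures 1, 2 and 3. Hoxb7, a thoracic gene, had 9.73, 10.20 and 9.81 in the knockout cultures, against 10.52, 10.60 and 10.29 in wild type on its first probe. On its other probe it had 8.96, 9.56 and 8.96 in the knockout cultures, against 9.77, 9.74 and 9.81 in wild type. None of these 3 probes overlapped between genotypes. The difference of Hoxb6 was -0.80 (SE 0.24, adjusted p = 0.559), and those of Hoxb7 were -0.56 (SE 0.16, adjusted p = 0.544) and -0.61 (SE 0.18, adjusted p = 0.537). Hoxb5, which acts in the lung and enteric nervous system, had 8.06, 8.22 and 7.51 in the knockout cultures, against 8.94, 8.37 and 8.28 in wild type, without overlap and with a difference of -0.60 (SE 0.24, adjusted p = 0.648).

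Hoxa7, which is used in the thoracic region, had 8.92, 10.02 and 9.12 in knockout cultures 1, 2 and 3, against 10.08, 10.43 and 10.00 in wild-type cultures 1, 2 and 3. Hoxa5, needed for lung and cervicothoracic skeleton, had 10.45, 11.16 and 10.02 in the knockout cultures, against 11.60, 11.11 and 11.12 in wild type. In both genes knockout culture 2 lay within the wild-type range, while knockout cultures 1 and 3 lay below it. The differences were -0.81 (SE 0.28, adjusted p = 0.629) for Hoxa7 and -0.73 (SE 0.28, adjusted p = 0.643) for Hoxa5. Hoxc6, a gene of the forelimb level and the thorax, had 10.59, 11.71 and 11.28 in the knockout cultures, against 11.92, 11.80 and 11.65 in wild type. Knockout culture 2 again lay within the wild-type range, and the difference was -0.59 (SE 0.26, adjusted p = 0.667).

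The tested paralogue 8 genes, Hoxc8 and Hoxd8, had higher means in the knockout cultures. Hoxc8, a thoracic gene, was detected on 4 arrays, 2 of each genotype, and differed by 0.15 (SE 0.16, adjusted p = 0.850). Hoxb8, known for its role in spinal cord and blood progenitors, was detected in wild-type culture 1 alone and was not tested. It stood at 4.31, 4.30 and 4.28 in the knockout cultures, against 4.82, 4.81 and 4.69 in wild type. No bound on its fold could be given, because its wild-type mean lay under the lowest detected levels. The same held for Hoxd11.

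Posterior genes outside Hoxd differed by at most 0.38 log2 units. Hoxa9, a gene of the thoracolumbar region and of blood progenitors, had 5.49, 6.04 and 5.79 in the knockout cultures, against 5.51, 5.21 and 5.82 in wild type on its first probe, a difference of 0.26 (SE 0.20, adjusted p = 0.790). Hoxb9, which helps to pattern the ribs, had 6.68, 7.40 and 7.16 in the knockout cultures, against 7.10, 6.75 and 7.53 in wild type (difference -0.05, SE 0.24, adjusted p = 0.976). Hoxc9, a thoracic gene, had 8.84, 9.58 and 9.67 in the knockout cultures, against 9.44, 9.44 and 9.57 in wild type (difference -0.12, SE 0.22, adjusted p = 0.922). For all 3 genes the groups overlapped.

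Hoxc10, expressed at lumbar and hindlimb level, was highest in 1 knockout culture. Its first probe had 7.59, 7.94 and 8.64 in knockout cultures 1, 2 and 3, against 7.64, 7.47 and 7.92 in wild-type cultures 1, 2 and 3. Its other probe had 6.95, 6.95 and 8.08 in the knockout cultures, against 7.05, 6.75 and 7.27 in wild type. Both probes were highest in knockout culture 3, and the differences of 0.38 (SE 0.26, adjusted p = 0.761) and 0.30 (SE 0.31, adjusted p = 0.845) did not pass. Hoxa10, the lumbar and uterine gene, was the 1 tested Hox probe with all knockout values above wild type, at 5.12, 5.06 and 5.08 in the knockout cultures, against 4.73, 4.80 and 4.99 in wild type. It was detected on all 3 knockout arrays and on 1 wild-type array, and its difference was 0.25 (SE 0.12, adjusted p = 0.685). The difference was 0.10 with an offset of 50, 0.079 without background correction and 0.045 with the submitters' values. Before normalization its groups overlapped, at 110.3, 100.1 and 98.2 intensity units in knockout cultures, against 103.8, 94.6 and 106.4 in wild type. Hoxa13, a gene of the distal limb, and Hoxc13, a gene of hair and tail, differed by 0.09 and 0.16.

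Counted over the tested Hox probes, 6 had all knockout values below all wild-type values, or 17.6%, against 7.47% of all tested probes in that direction. In the opposite direction it was Hoxa10 alone, against 6.65% of all tested probes. In either direction they made up 20.6% of the tested Hox probes, against 14.1% of all tested probes. In 29 of the 34 probes, or 85.3%, the wider of the within-genotype ranges exceeded the difference between genotype means, against 92.6% of all tested probes. For the posterior probes this held in 14 of 14.

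**Figure D4:**
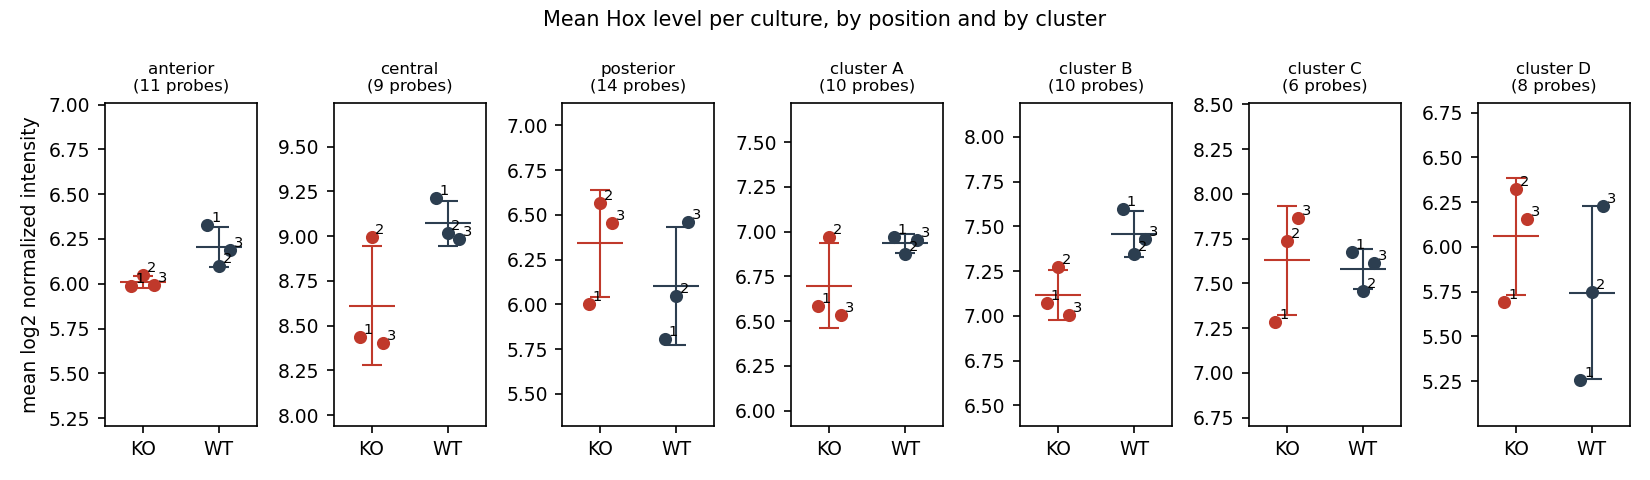
Mean log2 normalized intensity over the tested Hox probes of each position group and each cluster in every culture (points, numbered by replicate), with the mean and SD of the 3 cultures of a genotype as bars; all panels span the same log2 range. The anterior and the cluster B means of the knockout cultures lie below those of wild type, and all other panels overlap.

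The mean levels per culture set these patterns side by side, without a test, since the members were chosen with earlier results known. The anterior mean was 5.99, 6.05 and 5.99 in knockout cultures 1, 2 and 3, against 6.33, 6.10 and 6.19 in wild-type cultures 1, 2 and 3. The central mean was 8.44, 8.997 and 8.40 in knockout cultures 1, 2 and 3, against 9.21, 9.02 and 8.98 in wild-type cultures 1, 2 and 3. The posterior mean was 6.00, 6.57 and 6.45 in knockout cultures 1, 2 and 3, against 5.81, 6.05 and 6.46 in wild-type cultures 1, 2 and 3. The groups were separate for the anterior mean, and for the central mean knockout culture 2 lay within the wild-type range. The average was 8.61 ± 0.33 in knockout and 9.07 ± 0.12 in wild-type cultures (SD, n = 3 each) for the central group and 6.34 ± 0.30 in knockout and 6.10 ± 0.33 in wild-type cultures (SD, n = 3 each) for the posterior group.

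The posterior mean minus the central mean describes the balance within each culture. It was -2.43, -2.43 and -1.95 in knockout cultures 1, 2 and 3, against -3.41, -2.97 and -2.52 in wild-type cultures 1, 2 and 3. Every knockout culture was thus above every wild-type culture on this measure, with a difference of 0.70 against a pooled SD of 0.37. This balance was not among the planned results and has no test. It was not computed without wild-type culture 1, which was the lowest on it. Wild-type culture 3 lay within the pooled SD of knockout cultures 1 and 2. The posterior mean minus the anterior mean overlapped between the genotypes. It was 0.01, 0.52 and 0.46 in knockout cultures 1, 2 and 3, against -0.52, -0.05 and 0.27 in wild-type cultures 1, 2 and 3, a difference of 0.43.

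By cluster, the mean differences were -0.24 for Hoxa, -0.34 for Hoxb, 0.046 for Hoxc and 0.31 for Hoxd, with pooled SDs of 0.17, 0.13, 0.23 and 0.41. The Hoxb mean was 7.07, 7.27 and 7.01 in knockout cultures 1, 2 and 3, against 7.60, 7.34 and 7.43 in wild-type cultures 1, 2 and 3, and it was the only cluster mean without overlap. Of the Hoxb probes 9 of 10 were below 0, and of the Hoxd probes 7 of 8 were above 0 (51.6% of all tested probes were below 0). The tested Hoxb probes were 5 anterior, 4 central and 1 posterior, and the tested Hoxd probes 2 anterior, 1 central and 5 posterior. These counts therefore do not separate cluster from position. The Hoxd count was 4 of 8 with median scaling and without knockout culture 3, and 5 of 8 without wild-type culture 1, where the Hoxd mean was 0.071. Hoxa was split, with 5 probes below 0, all of numbers 2 to 7, and 5 above 0. The Hoxc value reversed under 9 of its 18 alternatives.

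Wild-type culture 1, the XX culture, lay at the end of the range for many probes. It was the highest culture for 4 of 9 central probes and the lowest for 7 of 14 posterior probes. Other cultures were often at an end as well. Knockout culture 3 was the lowest for 4 of the 9 central probes. Of the 14 posterior probes, knockout culture 2 was the highest for 6 and wild-type culture 2 the lowest for 5. With wild-type culture 1 left out, 5 in place of 8 Hox probes had an unadjusted p under 0.05, against 4.37% of all tested probes. The mean difference was then -0.39 for central and 0.089 for posterior probes, in place of -0.46 and 0.24. For anterior probes it was -0.14 in place of -0.20, and for Hoxb -0.27 in place of -0.34. Hoxa4 then differed by -0.57 and Hoxb6 by -0.67, in place of -0.71 and -0.80. Without knockout culture 3 as well, 2 Hox probes had an unadjusted p under 0.05, against 5.71% of all tested probes. Leaving out wild-type culture 3 moved the count to 13, of which 10 were lower and 3 higher in knockout cultures, against 6.70% of all tested probes. The part of culture sex was not tested beyond these values.

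Levels of markers of other cell types also differed in mean between the genotypes. All 10 tested probes of the macrophage and leukocyte list were below 0, with mean levels of 5.47 to 5.91 in knockout and 6.22 to 6.94 in wild-type cultures, and Ptprc was detected on no array. Of the 18 tested skeletal muscle probes 16 were above 0, with mean levels of 7.57 to 7.90 in knockout and 6.86 to 7.45 in wild-type cultures, and Myf5, Myf6 and Ckm were detected on no array. Of the 17 tested cartilage and bone probes 16 were below 0, with mean levels of 6.57 to 6.98 in knockout and 7.17 to 7.59 in wild-type cultures, and Runx2 and Matn3 were detected on no array. None of these probes passed an adjusted p of 0.05. At an unadjusted p under 0.05 by limma, 7 macrophage and leukocyte probes were lower in knockout cultures. At that threshold 13 skeletal muscle probes were higher and 6 cartilage and bone probes lower, and 0 probes of these lists went the opposite way. Among all tested probes, 3.86% were lower and 3.67% higher. The part of these markers in the Hox differences was not tested. Of the remaining lists, all 9 tested neural probes were above 0 (mean 7.77 to 8.26 in knockout and 7.57 to 7.80 in wild-type cultures). They cover 6 of the 12 neural genes, and the other 6 were detected on no array. All 3 tested endothelial probes, of 3 of the 7 genes, were above 0 (mean 7.47 to 8.28 in knockout and 6.91 to 7.54 in wild-type cultures). Of the epithelial probes 4 of 6 were above 0 (mean 6.08 to 6.77 in knockout and 6.26 to 6.83 in wild-type cultures), and 2 of the 8 genes were detected on no array. The ranges of the genotypes overlapped in the neural, endothelial and epithelial lists. They did not overlap in the macrophage and leukocyte, the skeletal muscle and the cartilage and bone lists. In bulk RNA, fewer cells of a type and less RNA per cell cannot be told apart.

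Proteins that work with Hox proteins were read next. The TALE homeodomain cofactors of Hox proteins (Meis, Pbx and Pknox, which bind DNA together with them) had 21 tested probes of 9 genes, 0 past an adjusted p of 0.05 in either direction, 11 above and 10 below 0, with a median of 0.01. One of 3 tested Pbx2 probes had the smallest p, at 6.94, 6.95 and 6.78 in the knockout cultures, against 6.57, 6.43 and 6.63 in wild type (difference 0.35, SE 0.12). The genotypes did not overlap on that probe. The other tested Pbx2 probes gave 0.08, SE 0.14 and -0.06, SE 0.18. For Meis3, 2 of the 3 tested probes gave 0.25, SE 0.13 and 0.25, SE 0.14, and the other gave -0.16, SE 0.26. The probes of each gene thus did not share 1 direction.

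Retinoic acid, Cdx factors and Gdf11 act on the Hox clusters in the embryo, and 12 of the 18 genes of that list were tested, with 17 probes. None passed in either direction, 10 were above and 7 below 0, and the median was 0.035. Crabp1, a retinoic acid binding protein, stood at 10.39, 10.07 and 11.29 in the knockout cultures, against 9.25, 9.96 and 9.78 in wild type (difference 0.92, SE 0.32). Rarb, a receptor whose gene retinoic acid induces, stood at 5.91, 6.71 and 7.53 in the knockout cultures, against 5.45, 5.68 and 6.18 in wild type (difference 0.95, SE 0.38), and its other tested probe differed by 0.74, SE 0.47. The 3 tested probes of Rarg, another receptor, disagreed, with -0.34, SE 0.13, then 0.31, SE 0.31, and 0.03, SE 0.13. Cdx2, Cdx4, Cyp26a1 and Gdf11 were detected on no array, and no probe was named for Cyp26c1.

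Polycomb proteins keep Hox genes silent and trithorax proteins keep them active. Of their list, 42 probes of 23 genes were tested, 0 passed in either direction, 17 were above and 25 below 0, and the median was -0.05. Rbbp7, a histone-binding subunit, had 4 tested probes, which differed by -0.29, SE 0.11, by -0.23, SE 0.12, by -0.15, SE 0.13 and by 0.19, SE 0.14. The probes of Phc1 differed by -0.29, SE 0.14 and by -0.19, SE 0.11. Of the genes flanking the clusters, 14 probes of 12 genes were tested, 0 passed in either direction, and the median was 0.018. Snx10, which lies beyond the Hoxa cluster, had 9.21, 9.32 and 9.34 in the knockout cultures, against 8.98, 9.02 and 8.73 in wild type (difference 0.38, SE 0.13), and Calcoco1 differed by 0.23, SE 0.13. Of the 3 tested Hnrnpa1 probes 1 differed by -0.22, SE 0.12, and the others by 0.024 and -0.0026.

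Limb and axial position factors had 26 tested probes of 20 genes, 0 past the threshold in either direction, 14 above and 12 below 0, and a median of 0.16. Isl1, which acts in hindlimb initiation, had 5.77, 5.87 and 5.86 in the knockout cultures, against 6.96, 6.41 and 6.49 in wild type (difference -0.79, SE 0.16), without overlap. Shox2, a gene of the proximal limb, had 7.12, 6.86 and 7.98 in the knockout cultures, against 5.12, 6.65 and 6.45 in wild type on 1 probe (difference 1.25, SE 0.43) and was lowest in wild-type culture 1, as posterior Hoxd was. Its other tested probe differed by 1.01, SE 0.34. Without wild-type culture 1, a fit added after the data were seen, the differences were 0.77 and 0.75. Six2 gave 0.51, SE 0.19. Tbx5, which marks the forelimb and is named here after its values were seen, was detected on no array.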

How the data were processed

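RNA of 6 primary fibroblast cultures, 1 per embryo, was hybridised to Illumina MouseWG-6 bead arrays, each culture to its own. Per the file headers, the deposited intensities are mean bead intensities exported from GenomeStudio 1.6.0 without normalization. The deposited detection values are fractions near 1 for detected probes, so the detection p was taken as 1 minus the value. The deposited bead SD is a spread of signal over the beads of a probe and gave the bead errors. A deposited table of normalized values, for which the submitters' processing notes name lumi, has no stated scale and was treated as a score and used as an alternative. A further deposited table of the same values and 24 of the 48 per-array columns were left aside.

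The neqc function corrected the background of the intensities and quantile-normalized the arrays (limma 3.58.1, R 4.3.3, offset 16). The 18221 of 45281 probes detected (p under 0.05) on 3 or more arrays were fitted with limma's lmFit and eBayes, as knockout minus wild type with two-sided p-values, adjusted by Benjamini-Hochberg across these probes. Every adjusted p in the text comes from that fit, apart from the range over the alternatives in the last section. Means over Hox probes have no test. The fit was tested on simulated data. Alternatives were other background corrections, scalings, filters and variance models, 1 probe per gene, the XX culture as a covariate, a replicate block and cultures left out. Motifs were searched on both strands of 250 bases in RefSeq promoters. Precision is limited by 3 arrays per genotype.

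The Hox members, the 5 pathway lists and the 7 marker lists were chosen with earlier results of these data known. Values on every array are given for the brightest probe of each cluster and position group, the 5 probes of smallest unadjusted p in each direction, the 5 genes of widest range and genes detected throughout 1 genotype only. For each pathway list up to 3 probes of smallest p are named. Further Hox genes are described to account for the members. The values of 1 Hox gene are not reported here, though it enters the counts and means. Replicates are separate cultures per the labels.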

Additional observations from a re-analysis of the deposited data

How the results depend on the processing

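No Hox probe passed an adjusted p of 0.05 under any of the 20 alternatives, and the smallest adjusted p of a Hox probe ranged over them between 0.265 and 0.985. At an unadjusted p under 0.05 the count of 8 (7.53% of all tested probes) moved to 2 without wild-type replicate 1 and knockout replicate 3 together (5.71%). Only wild-type replicate 1 is XX, so the XX covariate is the same fit as leaving it out, and both gave 5. Leaving out 1 culture at a time gave 5 to 13, the lowest without wild-type replicate 1 (4.37% of all tested probes) and the highest without wild-type replicate 3 (6.70%). The anterior mean difference of -0.20 was -0.11 without background correction, -0.33 with arrays scaled to a common median and -0.080 with the submitters' values. The Hoxb mean of -0.34 was -0.50 with median scaling. The central, posterior, Hoxa and Hoxd means kept their direction under all 18 of their alternatives, over -0.65 to -0.28, 0.033 to 0.42, -0.39 to -0.11 and 0.021 to 0.56. The Hoxc mean of 0.046 reversed to -0.0095 without background correction, -0.11 with median scaling, -0.033 with the submitters' values and -0.0079 both with probes detected on all 6 arrays and with a detection p under 0.01. It was -0.027 without wild-type replicate 1 and knockout replicate 3, and -0.072 to 0.22 with 1 culture left out. Hoxd12 reversed from 0.11 to -0.016 with median scaling, -0.36 with the XX covariate and -0.61 without wild-type replicate 1 and knockout replicate 3, and spanned -0.36 to 0.63 with 1 culture left out. The cause of these shifts was not tested. The labels do not say whether equal replicate numbers pair the cultures, and the main fit treats them as unpaired. The correlation of deviations between equal numbers was 0.22, -0.19 and -0.21. Knockout culture 1 correlated best with wild-type culture 1, and knockout cultures 2 and 3 did not correlate best with their own number. With 3 cultures per genotype these values cannot settle whether there was a pairing. With the replicate block, 0 Hox probes passed the adjusted test and 10 had an unadjusted p under 0.05 (6.58% of all tested probes). Of these, 9 were lower in knockout cultures and 1 was higher. The higher 1 was Hoxd10, with a difference of 0.78 (unadjusted p = 0.0119 by limma with the block). At a detection p under 0.01, 25, 27 and 29 Hox probes were detected in the knockout cultures, against 23, 25 and 30 in wild type, so the weakest detections rest on the threshold. With 3 arrays per genotype, small differences in dim probes were not detectable. Larger differences in bright probes did not pass either, such as -0.73 for Hoxa5 and -0.81 for Hoxa7. A probe that did not pass is therefore not shown to be equal between genotypes.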
